A study of Mus musculus with 36 samples.

Results

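The genes that make microRNAs and carry out their silencing were followed in blood drawn from the periphery of Townes sickle cell mice given MIR29B or a scrambled control RNA. The set held 10 genes, taken by name from the 16812 genes of the count table: Drosha and Dgcr8, which cut the primary microRNA transcript, Xpo5, which exports the precursor, Dicer1, which trims it to the mature length, the Argonautes Ago1, Ago2, Ago3 and Ago4, and the scaffold genes Tnrc6a and Tnrc6b. RNA was sequenced from 36 libraries in 12 groups of 3, with 1 group for each combination of week 0, 2 or 4, a dose of 2 or 3 mg/kg, and scrambled or MIR29B. All mice were Townes mice, a strain whose mouse globin genes are replaced by human ones, and they are used as a model of sickle cell disease. Both arms received their RNA by mini-osmotic pump, so the scrambled groups shared the strain and the pump with the MIR29B groups. The series title calls the MIR29B cholesterol-modified. The labels give neither the ages nor the sequence of either RNA, and they do not say whether week 0 blood preceded the dosing, so at week 0 the names MIR29B and scrambled give the arm and may not mean an exposure. Nor do they tie libraries of separate weeks to the same or to different animals, and the p-values below therefore measure the spread between samples, which may be technical.

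A microRNA gene is transcribed as a long precursor. The nuclear complex of Drosha and its RNA-binding partner Dgcr8 releases a hairpin, exportin-5 carries it to the cytoplasm, and Dicer1 cuts off the loop. A single strand is loaded into an Argonaute, which pairs mainly through the seed of the microRNA with matching sites in the 3′ UTR of messages, and the Argonaute recruits a Tnrc6 (GW182) protein that brings in the deadenylases and the decapping machinery. Ago2 is the Argonaute that can cleave a fully paired RNA, and in red cell precursors that cleavage is also needed to mature an abundant erythroid microRNA without Dicer1. Small RNAs brought into a cell from outside are loaded into the same Argonautes.

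The members of the miR-29 family share their seed, and that seed decides which sites were searched in the 10 genes. The labels do not say which miR-29b sequence was delivered, so the RefSeq mouse sequences are given for reference, 5′ to 3′, with the seed, bases 2 to 8, in capitals.
mmu-miR-29b-3p: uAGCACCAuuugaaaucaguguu
mmu-miR-29a-3p: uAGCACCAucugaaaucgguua
mmu-miR-29c-3p: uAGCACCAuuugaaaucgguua
All 3 mature sequences carry the seed AGCACCA. On GRCm38.p6 the miR-29b-3p sequence lies at chr1:195037091-195037113 on the plus strand (Mir29b-2) and at chr6:31063025-31063047 on the minus strand (Mir29b-1).

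Matches to this seed in the annotated 3′ UTRs were uneven among the genes. On the transcript strand, 3 kinds of match were searched, each counted once and under the longest kind: TGGTGCTA (8mer), TGGTGCT (7mer-m8) and GGTGCTA (7mer-A1). Dicer1 held 1 8mer, Ago3 held 1 8mer and 1 7mer-m8, Ago1 and Xpo5 each held 1 7mer-m8 and 1 7mer-A1, Ago2 held 4 of the 7mer-A1 kind, and Tnrc6b held 1. Drosha, Dgcr8, Ago4 and Tnrc6a held none of these letters. The following windows show 1 match of each gene, in transcript orientation with the match in capitals. For Ago3 it is the 8mer, for Ago1 and Xpo5 the 7mer-m8, and for Ago2 the match nearest the stop codon.
Dicer1: ctgcattttcccgtTGGTGCTAcg
Ago3: taaattcctttcggTGGTGCTAaa
Ago1: gagagaggctgggtTGGTGCTctc
Xpo5: gtcctcctcctgccTGGTGCTtgg
Ago2: ccagggaagcacagGGTGCTAga
Tnrc6b: tacggtgaaagccgGGTGCTAga
On GRCm38 these windows are chr12:104690389-104690412 (minus) for Dicer1, chr4:126334738-126334761 (minus) for Ago3, chr4:126435569-126435592 (minus) for Ago1, chr17:46243354-46243377 (plus) for Xpo5, chr15:73100586-73100608 (minus) for Ago2 and chr15:80932154-80932176 (plus) for Tnrc6b. All 4 Ago2 matches lie in the last 5781 bases of the GENCODE transcript, past the end of the RefSeq gene. A match was present in 6 of the 10 genes (60%) and in 19.1% of the 11189 tested genes with an annotated 3′ UTR, and an 8mer in 2 of 10 (20%) and 3.09%. The 3′ UTRs of the 10 genes were longer, with a median of 3766.5 bases against 1159, and held 22.7 matches per 100 kb against 14.5. A match is a run of letters and does not show that a microRNA binds there.

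Depth limited the lower members. Library totals were 10.7 to 45.65 M counts over all transcripts, with ribosomal RNA at 1.39% to 15.05%, and 3 libraries stood above 5%: replicate 1 of scrambled 2 mg/kg at week 0 (5.09%) and replicates 2 and 3 of MIR29B 2 mg/kg at week 2 (15.05% and 9.15%). The 10 genes together took 524 to 2980 counts of a library. Over all 36 libraries Tnrc6b had 28458 counts, Ago2 11466, Tnrc6a 6162, Dicer1 2610, Ago1 2488, Dgcr8 1478, Xpo5 954, Drosha 844, Ago4 708 and Ago3 464. Ago3 had no count in 5 libraries, Xpo5 in 4, and Drosha, Dgcr8 and Ago4 in 1 each. In those libraries 3 counts would have stood at 0.178 to 0.393 CPM (counts scaled to a library size of 1 M by edgeR with TMM factors), which is the limit that a count of 0 allows for counting error alone. Every count in the table is even, and if a fragment was counted as 2, the limit of 3 fragments is 6 counts, or 0.357 to 0.786 CPM. All 10 genes passed the filter on low counts. The libraries are labelled erythrocytes, and all 14 erythroid and reticulocyte markers had counts, with a summed level of 102000 to 258600 CPM. All markers on the lists of white cells and platelets had counts too. Their summed levels were 172 to 2838 CPM for 13 neutrophil genes, 182 to 1796 CPM for 10 monocyte genes, 16.5 to 372.5 CPM for 8 B cell genes, 53.0 to 167 CPM for 10 T cell genes, 6.44 to 101 CPM for 7 NK cell genes, 178 to 1561 CPM for 8 platelet genes and 4.68 to 82.3 CPM for 8 eosinophil and basophil genes. In these bulk samples, more RNA per cell and more cells of a type cannot be told apart.

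The scaffold genes and Ago2 were the most abundant members, and the other Argonautes and the processing enzymes were low. Levels are compared between genes as TMM-scaled CPM per kb of transcript, as mean ± SD over the 36 libraries. Tnrc6b was at 2.36 ± 0.711 CPM per kb, which was above 69.6% of the 11863 tested genes with a known length. Ago2, the slicing Argonaute, was at 1.14 ± 0.585 and Tnrc6a at 1.02 ± 0.503 CPM per kb, against a median of 0.958 for tested genes. If the Ago2 row does not cover the bases past the RefSeq gene end, its length is 8.02 kb and not 13.8 kb, and its mean is 1.97 CPM per kb. Dgcr8 and Ago1 stood at 0.475 ± 0.213 and 0.472 ± 0.199 CPM per kb, and Dicer1 at 0.364 ± 0.148. Xpo5, at 0.247 ± 0.160, Drosha, at 0.240 ± 0.153, and Ago4, at 0.148 ± 0.0902 CPM per kb, were above 19.6%, 19.1% and 11.8% of tested genes. Ago3 was the lowest at 0.0376 ± 0.0305 CPM per kb, above 1.4% of tested genes.

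**Figure D1:**
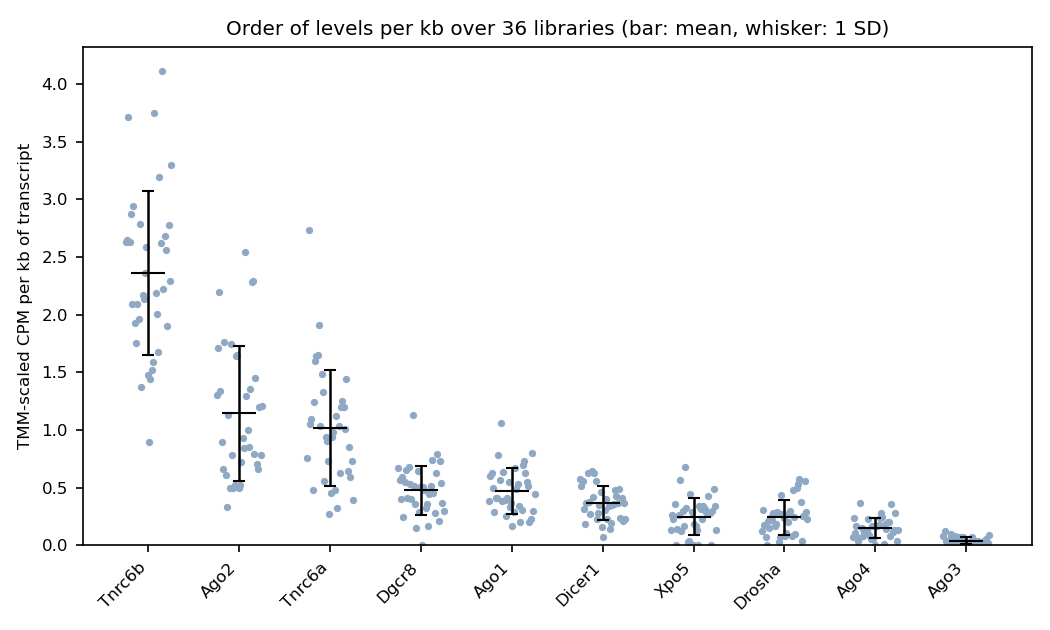
The 10 genes in order of mean level, with the TMM-scaled CPM per kb of transcript on the vertical axis; each point is 1 of 36 libraries, the bar is the mean and the whisker 1 SD. Tnrc6b stands highest at 2.36 CPM per kb, Ago2 and Tnrc6a overlap near 1, and Ago3 lies at 0.0376.

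Some neighbours in this order were not separated by the spread between libraries. Tnrc6b was above Ago2 in 36 of 36 libraries, Tnrc6a above Dgcr8 in 35 and Ago4 above Ago3 in 33. Ago2 was above Tnrc6a in 22 of 36, with a difference of 0.126 ± 0.654 CPM per kb. Dgcr8 and Ago1, the first a cofactor of Drosha and the second an Argonaute, differed by 0.00290 ± 0.236 CPM per kb, and Dgcr8 was higher in 20 libraries. Xpo5 and Drosha differed by 0.00622 ± 0.165 CPM per kb, with Xpo5 higher in 19. Ago1 over Dicer1 held in 26 libraries, Dicer1 over Xpo5 in 27 and Drosha over Ago4 in 27. The place of Ago2 depends on its length: at 8.02 kb Tnrc6b was above Ago2 in 25 of 36 libraries and Ago2 above Tnrc6a in 31.

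Within the Argonaute family, Ago2 gave most of the counts per kb. Its share of the 4 genes ranged from 33.7% to 80.2% with a median of 63.1%, Ago1 had a median of 23.9% (15.5% to 57.1%), Ago4 of 7.95% (0% to 18.7%) and Ago3 of 1.89% (0% to 4.96%). At week 2 the Ago2 share had a median of 68.2% in the MIR29B arm (52.7% to 80.2%) and 55.5% in the scrambled arm (52.5% to 61.1%). The week 0 medians were 60.9% (MIR29B) and 65.4% (scrambled), and those of week 4 were 66.8% and 63.2%. With the 8.02 kb length the Ago2 share had a median of 74.6% over all libraries, and of 78.7% with MIR29B and 68.2% with scrambled RNA at week 2. Among the scaffolds, Tnrc6b took 49.2% to 89.5% of the Tnrc6a and Tnrc6b counts per kb. Its median share was 65.4% at week 0, 77.5% at week 2 and 76.7% at week 4 in the MIR29B arm, and 59.4%, 63.7% and 70.8% in the scrambled arm. These shares do not depend on library scaling, the arms overlapped at every week, and no test was made of them.

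**Figure D2:**
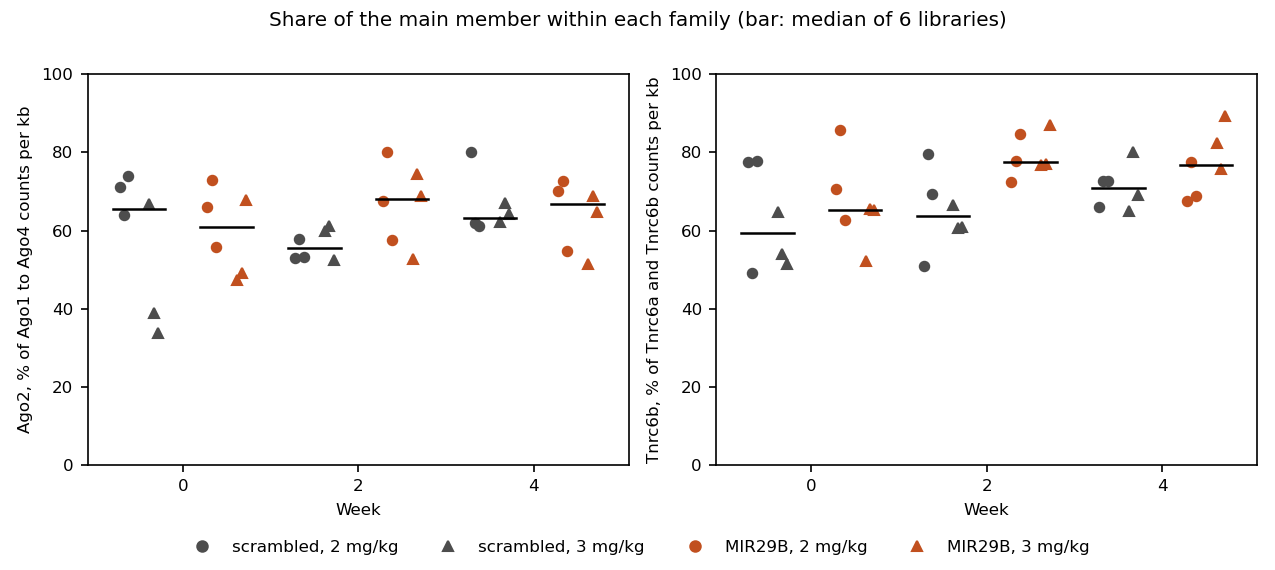
Share of Ago2 among the 4 Argonautes (left) and of Tnrc6b among Tnrc6a and Tnrc6b (right), in percent of counts per kb, by week; grey marks are scrambled, orange marks MIR29B, circles 2 mg/kg and triangles 3 mg/kg, and the bar is the median of 6 libraries. The arms overlap at each week, and the median Ago2 share at week 2 is 68.2% with MIR29B and 55.5% with scrambled RNA.

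MIR29B was compared with the scrambled control to ask whether the delivered microRNA shifted these genes. No gene of the set passed the test at any week or dose. At an adjusted p under 0.05 by edgeR's quasi-likelihood test, the call threshold used throughout, 0 of 10 were called in each of the 6 comparisons by week and dose and in the 3 with doses averaged, and 0 of 11953 tested genes (0%) were called in them. DESeq2 also called 0 of the 10 in these 9 comparisons. Over all genes it called 46 at week 2 and 2 mg/kg (0.385%), 5 at week 2 and 3 mg/kg (0.0418%), 19 at week 0 with doses averaged (0.159%), 78 at week 2 with doses averaged (0.653%) and 0 in the other 5. Members at an unadjusted p under 0.05 were counted beside the share of all tested genes below it. With 2 mg/kg there were 0 at week 0 (4.63%), 0 at week 2 (8.22%) and 0 at week 4 (2.25%). With 3 mg/kg there were 0 at week 0 (3.4%), 2 at week 2 (7.09%) and 0 at week 4 (3.2%). With doses averaged it was 0 at week 0 (7.13%), 2 at week 2 (9.83%) and 0 at week 4 (2.63%). The 2 genes were Ago2 and Tnrc6b each time. The median log2 fold change of the 10 was -0.25 at week 0, 0.43 at week 2 and 0.38 at week 4, beside -0.05, -0.09 and 0.03 over all tested genes. The week 0 value averages doses of opposite sign. All 10 estimates were below 0 at 2 mg/kg, with a median of -0.63 beside -0.10 over tested genes, of which 44.1% were above 0. At 3 mg/kg 8 of 10 were above 0, with a median of 0.24, beside 49.8% of tested genes above 0. Drosha, Xpo5 and Ago3 had no count in replicate 2 of MIR29B 2 mg/kg at week 0.

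**Figure D3:**
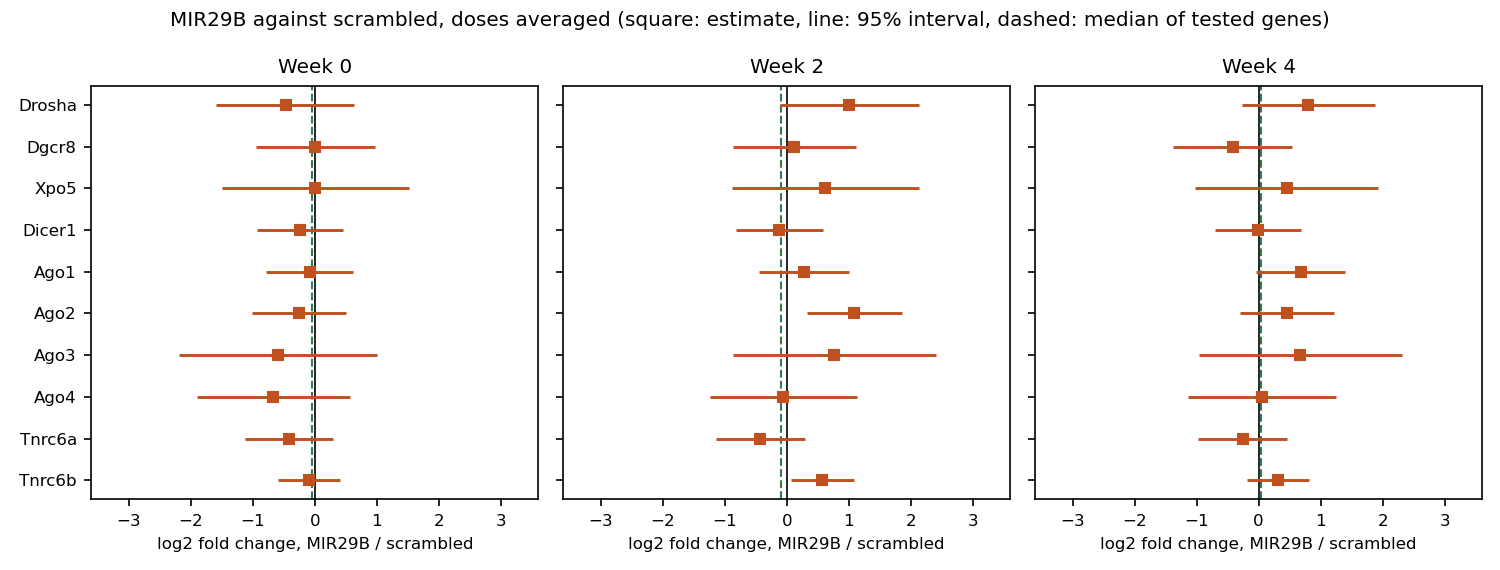
Log2 fold change of MIR29B over scrambled for each gene at weeks 0, 2 and 4, doses averaged; squares are edgeR estimates, lines 95% intervals, and the dashed line is the median of 11953 tested genes. The intervals of Ago2 (0.32 to 1.86) and Tnrc6b (0.07 to 1.08) at week 2 lie above 0, with adjusted p of 0.329 and 0.437, and the other intervals span 0.

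The microprocessor genes were low in every group. Drosha, the nuclease, had a lowest, median and highest level at week 2 of 0.354, 1.25 and 1.98 CPM with MIR29B and 0.142, 0.411 and 1.31 CPM with scrambled RNA. At week 4 the values were 1.03, 2.35 and 2.61 CPM with MIR29B and 0.181, 1.14 and 2.19 CPM with scrambled RNA. Of the 6 MIR29B libraries, 2 at week 2 and 4 at week 4 lay above the highest scrambled library, and the arms overlapped at both weeks. The log2 fold changes with doses averaged were 1.01 ± 0.55 (SE) at week 2 and 0.80 ± 0.53 at week 4, with adjusted p of 0.566 and 0.9999, and -0.47 ± 0.55 at week 0. Dgcr8, the RNA-binding partner, stood at 0.709, 1.46 and 2.78 CPM with MIR29B and 0, 1.81 and 2.22 CPM with scrambled RNA at week 2. Its log2 fold changes were 0.01, 0.12 and -0.42 at weeks 0, 2 and 4, and the week 2 interval ran from a 0.55-fold to a 2.16-fold level. Dgcr8 shares part of its locus with Trmt2a, and since the strand setting of the counting is not given in the sources used here, reads of the 2 genes cannot be told apart there.

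The genes of export and dicing did not pass the test between the arms. Xpo5, the exporter, stood at 0, 1.54 and 2.27 CPM with MIR29B and 0.142, 0.776 and 1.65 CPM with scrambled RNA at week 2, and its log2 fold changes were 0.01, 0.62 and 0.45 at weeks 0, 2 and 4. Its week 2 interval ran from 0.54-fold to 4.39-fold. Dicer1, whose 3′ UTR holds an 8mer, stood at 1.42, 2.79 and 4.52 CPM with MIR29B and 0.713, 2.89 and 5.52 CPM with scrambled RNA at week 2. At week 4 it stood at 2.04, 3.59 and 4.74 CPM with MIR29B and 1.90, 3.49 and 4.81 CPM with scrambled RNA. The arms overlapped at both weeks. At week 0 and 2 mg/kg Dicer1 stood at 5.64, 5.09 and 5.48 CPM in the scrambled libraries and 3.08, 1.83 and 3.63 CPM in the MIR29B libraries. The log2 fold change there was -0.91 ± 0.49 with an adjusted p of 0.876, and at 3 mg/kg it was 0.42 ± 0.48. With doses averaged the values were -0.24 ± 0.34 at week 0, -0.12 ± 0.35 at week 2 and -0.01 ± 0.34 at week 4, and the intervals at weeks 2 and 4 ran from 0.57-fold to 1.5-fold and from 0.62-fold to 1.6-fold.

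Among the Argonautes, Ago2 had the highest arm difference at week 2 with doses averaged, and it did not pass the test. Scrambled libraries stood at 10.8, 6.81 and 7.21 CPM at 2 mg/kg and at 7.25, 9.96 and 12.9 CPM at 3 mg/kg. With MIR29B they stood at 22.7, 22.8 and 6.85 CPM at 2 mg/kg and at 11.6, 35.0 and 17.9 CPM at 3 mg/kg. Of the 6 MIR29B libraries, 4 lay above every scrambled library and 2 lay within the scrambled range. The log2 fold change was 1.08 ± 0.53 at 2 mg/kg, with an adjusted p of 0.608, and 1.11 ± 0.54 at 3 mg/kg, with an adjusted p of 0.696. Without replicate 2 of MIR29B 3 mg/kg, the library at 35.0 CPM, the value at that dose was 0.62. With doses averaged it was 1.09 ± 0.38, a fold of 1.25 to 3.63 by its 95% interval, with an edgeR adjusted p of 0.329 (0.00672 before adjustment). On leaving out each library in turn the adjusted p ran from 0.191 to 0.616. The lowest over all alternatives was 0.0628, above the call threshold, and DESeq2 gave an adjusted p of 0.1585. With the transcript length index below as a covariate the value was 0.88. Without the 3 libraries above 5% ribosomal RNA the value was 1.30. That fit leaves 1 MIR29B library at 2 mg/kg, which is assumed to vary like the other groups. The summed level of the neutrophil markers at week 2 was 768 to 1664 CPM with MIR29B and 861 to 2838 CPM with scrambled RNA, with medians of 906 and 2050 CPM. Monocyte markers had medians of 410 and 603.5 CPM and erythroid markers of 188100 and 143100 CPM. Those of T cells were 120 and 88.6 CPM, of B cells 116 and 125 CPM, and of NK cells 23.4 and 24.6 CPM. Platelet markers had medians of 369 and 350 CPM, and eosinophil and basophil markers of 27.6 and 29.35 CPM. No marker on these lists was at 0 in all libraries, and the part of cell content in the result was not tested. At week 4 Ago2 stood at 10.7, 16.6 and 31.6 CPM with MIR29B and 9.17, 12.8 and 20.01 CPM with scrambled RNA, a log2 fold change of 0.46 ± 0.37.

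The other Argonautes did not pass the test either, and the intervals of Ago3 and Ago4 were wider. Ago1, with a pair of 7mer matches, stood at 2.12, 4.23 and 5.78 CPM with MIR29B and 1.43, 1.94 and 5.02 CPM with scrambled RNA at week 4, and 2 MIR29B libraries lay above the scrambled range. Its log2 fold changes were -0.08 ± 0.35, 0.28 ± 0.35 and 0.68 ± 0.35 at weeks 0, 2 and 4, with adjusted p of 0.996, 0.854 and 0.9999. Ago3, with an 8mer and the fewest counts, stood at 0, 0.485 and 1.17 CPM with MIR29B and 0, 0.241 and 1.14 CPM with scrambled RNA at week 2. Its log2 fold changes were -0.59 ± 0.78, 0.77 ± 0.81 and 0.67 ± 0.81, and its week 2 interval ran from 0.55-fold to 5.32-fold. Ago4, with no match, stood at 0, 1.32 and 1.81 CPM with MIR29B and 0.328, 1.07 and 1.48 CPM with scrambled RNA at week 2, and its log2 fold changes were -0.67 ± 0.60, -0.06 ± 0.58 and 0.06 ± 0.59. Ago1, Ago3 and Ago4 lie beside each other on chromosome 4, and their annotated genes do not overlap.

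The estimates of the scaffold genes had opposite signs at week 2, and neither passed the test. Tnrc6b, which links Argonautes to the deadenylases, stood at 23.8, 37.6 and 37.0 CPM in the scrambled libraries and 41.0, 44.9 and 25.6 CPM in the MIR29B libraries at 2 mg/kg. The 3 mg/kg libraries had 15.6, 25.0 and 26.4 CPM with scrambled RNA and 27.6, 65.0 and 37.9 CPM with MIR29B. Of the 6 MIR29B libraries, 4 lay above the highest scrambled library of either dose, so the arms overlapped. The log2 fold change was 0.18 ± 0.35 at 2 mg/kg and 0.96 ± 0.35 at 3 mg/kg, the latter with an edgeR adjusted p of 0.633 (0.00986 before adjustment). With doses averaged it was 0.57 ± 0.25 with an adjusted p of 0.437, and it was 0.31 ± 0.25 at week 4. The adjusted p at 3 mg/kg ran from 0.333 to 0.834 over the alternatives, and the value was 0.61 without replicate 2 of MIR29B at that dose, the library at 65.0 CPM. Tnrc6a stood at 2.18, 4.96 and 9.17 CPM with MIR29B and 3.68, 7.70 and 10.9 CPM with scrambled RNA at week 2, with a log2 fold change of -0.43 ± 0.35. It was -0.41 ± 0.35 at week 0 and -0.26 ± 0.35 at week 4, and the lowest of its adjusted p in the 9 comparisons of the arms was 0.740.

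**Figure D4:**
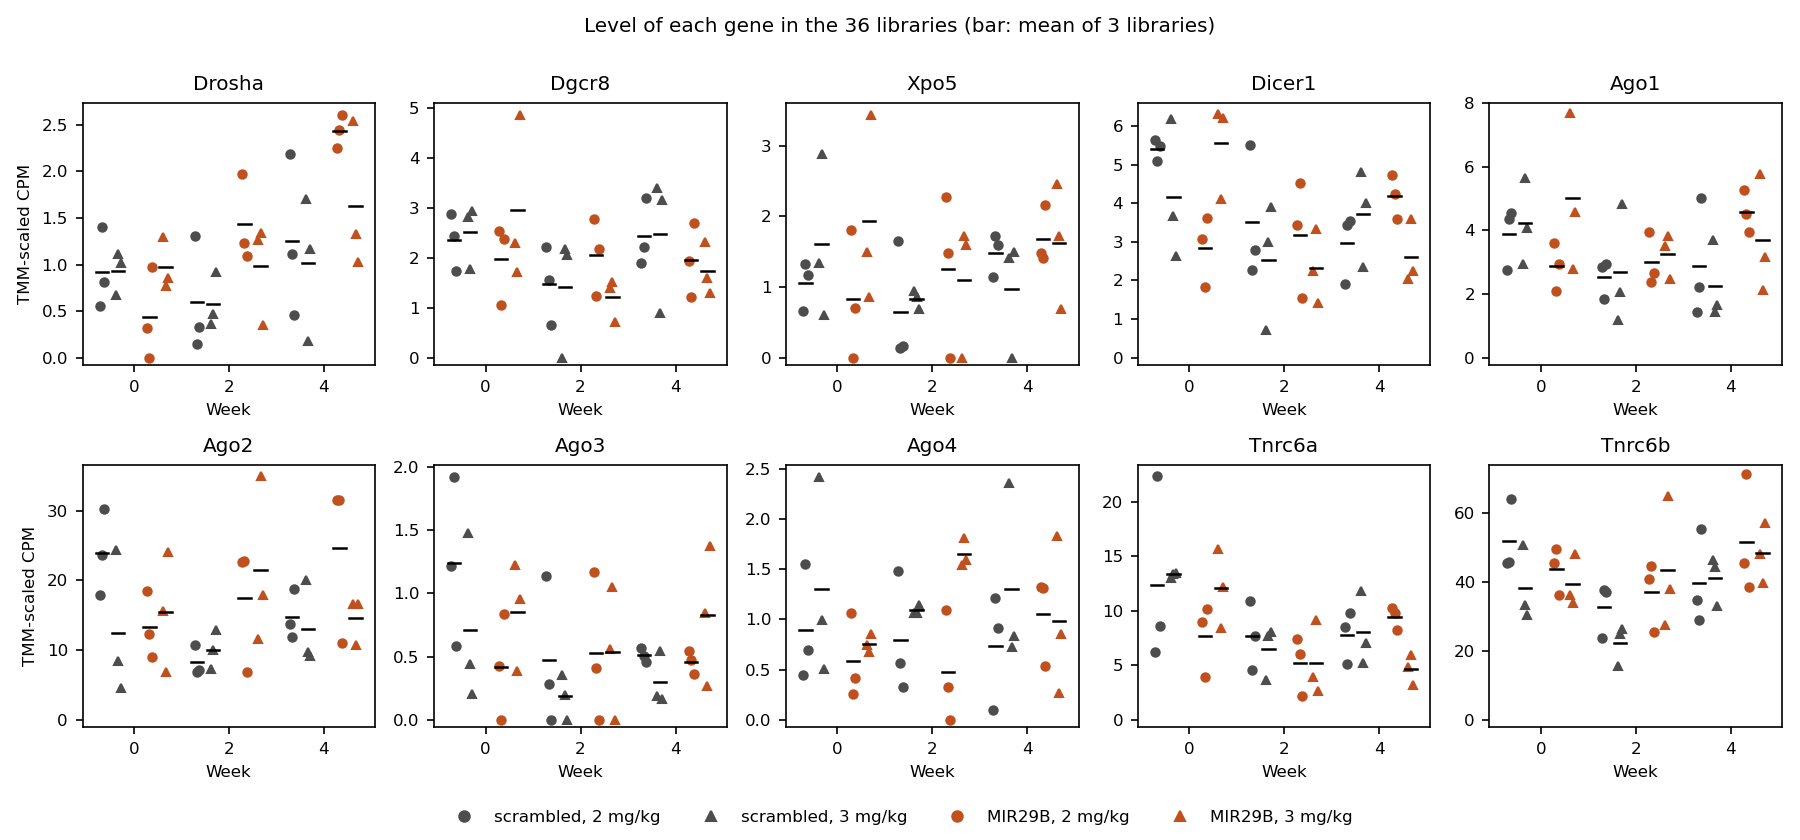
TMM-scaled CPM of each gene in all 36 libraries by week; grey marks are scrambled, orange marks MIR29B, circles 2 mg/kg, triangles 3 mg/kg, and bars the means of 3 libraries. At week 2 the Ago2 libraries stand between 6.81 and 12.9 CPM with scrambled RNA and between 6.85 and 35.0 CPM with MIR29B, and Tnrc6b is the highest gene throughout.

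The estimates were also set beside the seed matches. At week 2 the median log2 fold change was 0.60 (-0.12 to 1.09) over the 6 genes with a match, of which 5 were above 0, and 0.03 (-0.43 to 1.01) over the 4 without, of which 2 were above 0. At week 4 the medians were 0.45 and -0.10, with 5 of 6 and 2 of 4 genes above 0. At week 0 they were -0.17 and -0.44, with 1 gene above 0 in each set. Of all tested genes, 45.9% were above 0 at week 0, 42.7% at week 2 and 52.6% at week 4. The part of transcript length in the split was not tested. These are counts of a few genes, given as a description, and no test was made of the split. It also rests on the Ago2 matches past the RefSeq gene end: counting only matches inside the RefSeq gene, the week 2 medians were 0.57 over 5 genes, 4 of them above 0, and 0.12 over the other 5, 3 of them above 0. The 8mer genes Dicer1 and Ago3 had week 2 values of -0.12 and 0.77.

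Dose made no difference that passed the test. Between 3 and 2 mg/kg MIR29B, 0 of 10 genes were called at week 2 and at week 4, as were 0 of the tested genes (0%). At an unadjusted p under 0.05 there were 0 of 10 at week 2 (1.73% of all tested) and 1 at week 4 (2.3%). That gene was Tnrc6a, which stood at 10.3, 9.77 and 8.27 CPM at 2 mg/kg and 4.86, 5.97 and 3.18 CPM at 3 mg/kg at week 4. The log2 fold change was -1.02 ± 0.50 with an adjusted p of 0.999. Scrambled libraries of that week stood at 8.47, 5.15 and 9.82 CPM at 2 mg/kg and 11.8, 5.23 and 7.002 CPM at 3 mg/kg. For Tnrc6a the MIR29B effect differed between doses by -1.06 ± 0.70 at week 4, with an adjusted p of 0.9999, and in the fit with the transcript length index below, the MIR29B dose difference was -0.54. Ago4 had the highest dose difference at week 2. It stood at 1.10, 0.329 and 0 CPM at 2 mg/kg and 1.54, 1.81 and 1.59 CPM at 3 mg/kg MIR29B. Its log2 fold change of 1.71 ± 0.86 had an adjusted p of 1. When the arm effect at 3 mg/kg was set against that at 2 mg/kg, 0 of 10 were called at each week (0% of all tested), and 0 had an unadjusted p under 0.05 at week 2 (5.76%) and at week 4 (3.43%).

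The week comparisons asked how the genes stood at weeks 2 and 4 against week 0 within each arm. No gene of the set was called in either arm. In the MIR29B arm 0 of 10 were called at week 2 against 0, where 650 genes (5.44%) were, 0 at week 4 against 0, where 369 (3.09%) were, and 0 at week 4 against 2, where 0 (0%) were. With scrambled RNA 0 of 10 were called at week 2 against 0, where 384 genes (3.21%) were, 0 at week 4 against 0, where 55 (0.46%) were, and 0 at week 4 against 2, where 0 (0%) were. The members at an unadjusted p under 0.05 in the MIR29B arm were Tnrc6a alone at week 2 against 0 (20.4% of all tested genes), Drosha alone at week 4 against 0 (17.1%) and none at week 4 against 2 (11%). For scrambled RNA they were Ago2, Tnrc6a and Tnrc6b at week 2 against 0 (20.3%), none at week 4 against 0 (9.77%) and Tnrc6b at week 4 against 2 (10.8%). Since comparisons against week 0 in an arm share the week 0 libraries, they are not independent of each other.

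**Figure D5:**
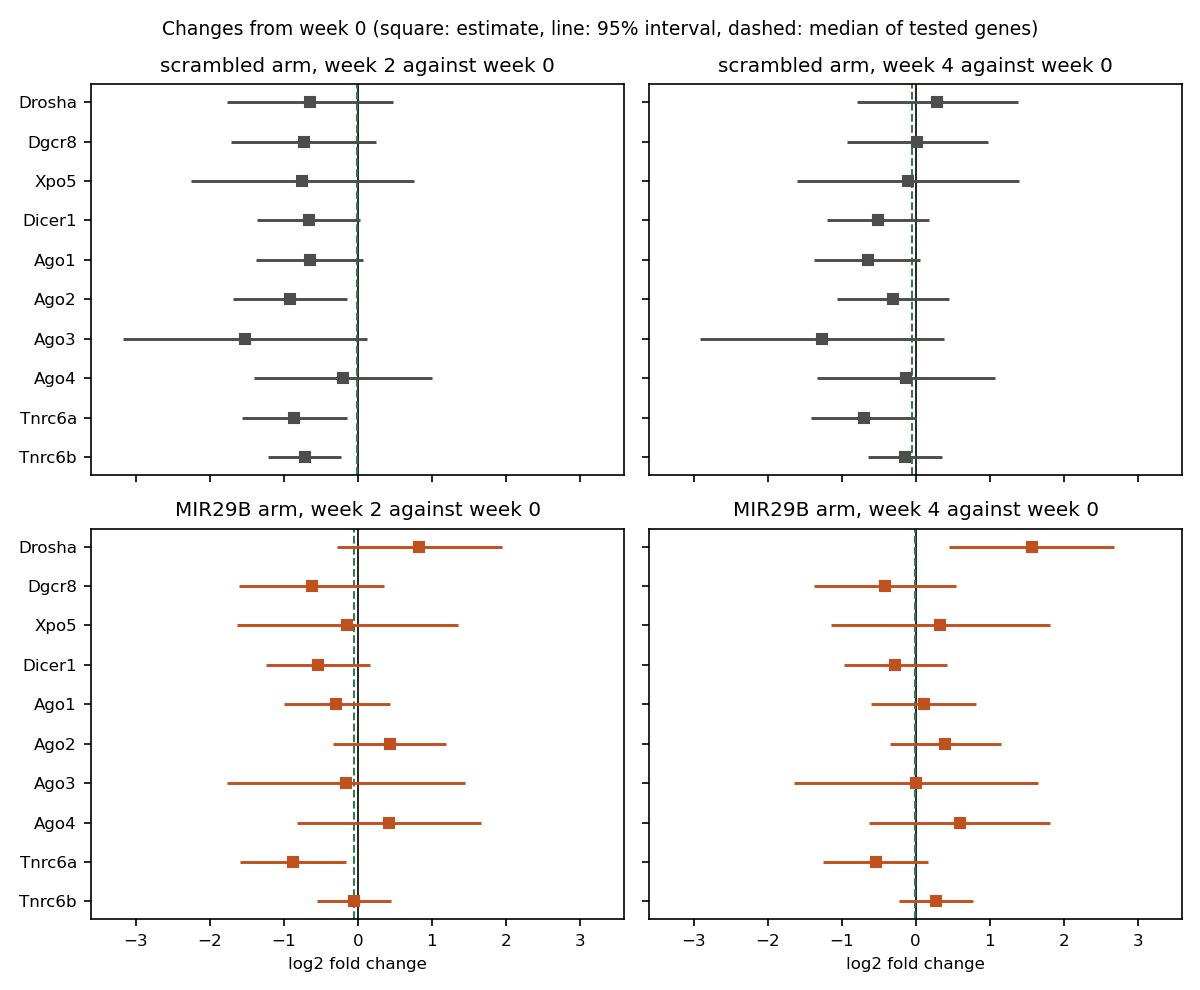
Log2 fold change from week 0 for each gene, scrambled arm above and MIR29B arm below, week 2 left and week 4 right; squares are edgeR estimates, lines 95% intervals, and the dashed line the median of tested genes. In the scrambled arm at week 2 all 10 squares lie below 0, and in the MIR29B arm at week 4 Drosha lies at 1.57.

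In the scrambled arm at week 2 the estimates of all 10 genes were below 0, with a median of -0.73 beside -0.01 over tested genes, of which 49.3% were above 0. Tnrc6b stood at 30.4, 45.8 and 64.3 CPM (lowest, median, highest) at week 0 and 15.6, 25.7 and 37.6 CPM at week 2, a log2 fold change of -0.72 ± 0.25 with an adjusted p of 0.0939, the lowest in the set. DESeq2 called it, with an adjusted p of 0.0441, in a comparison where it called 8.53% of genes. Ago2 stood at 4.57, 20.8 and 30.3 CPM at week 0 and 6.81, 8.60 and 12.9 CPM at week 2, a log2 fold change of -0.92 ± 0.38 with an adjusted p of 0.162. Tnrc6a stood at 6.20, 13.2 and 22.4 CPM and then at 3.68, 7.70 and 10.9 CPM, a log2 fold change of -0.86 ± 0.35 with an adjusted p of 0.156. The week 0 and week 2 libraries overlapped for all 3 genes. Without replicate 1 of scrambled 3 mg/kg at week 0 the Ago2 value was -0.45, and without replicate 2 of scrambled 2 mg/kg at week 0 the Tnrc6a value was -0.48. At week 4 against week 0 the values were -0.14 ± 0.25, -0.31 ± 0.37 and -0.70 ± 0.35.

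A measure of how strongly each library favoured long transcripts also differed between these weeks. This transcript length index, the slope of a library's deviation in log2 CPM on log2 transcript length, was 0.012 to 0.301 in the scrambled arm at week 0 (mean 0.133) and -0.604 to 0.201 at week 2 (mean -0.144). In the MIR29B arm the means were -0.026 at week 0, -0.104 at week 2 and 0.138 at week 4. With the index as a covariate the scrambled week 2 estimates were -0.31 for Ago2, -0.30 for Tnrc6a and -0.51 for Tnrc6b, with adjusted p of 0.650, 0.597 and 0.252. The neutrophil markers had a median sum of 620.5 CPM at week 0 and 2050 CPM at week 2 in the scrambled arm. Monocyte medians there were 457 and 603.5 CPM, B cell medians 110 and 125 CPM, and T cell medians 121 and 88.6 CPM. NK cell medians were 43.3 and 24.6 CPM, platelet medians 472 and 350 CPM, and erythroid medians 167600 and 143100 CPM. Eosinophil and basophil medians were 20.05 and 29.35 CPM. The part of cell content in the week values was not tested.

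In the MIR29B arm Tnrc6a had the lowest estimate at week 2. It stood at 3.93, 9.56 and 15.6 CPM at week 0 and at 2.18, 4.96 and 9.17 CPM at week 2, with overlap, and its log2 fold change was -0.88 ± 0.35 with an adjusted p of 0.145. It was called with the transcript length index as a covariate (-0.82 ± 0.24, adjusted p of 0.0214), where 12.1% of genes were called, and without replicate 2 of MIR29B 3 mg/kg at week 2 (-1.22 ± 0.36, adjusted p of 0.0394), where 5.53% were. Without the 3 libraries above 5% ribosomal RNA it was -0.65, with an adjusted p of 0.515. At week 4 against week 0 Tnrc6a was -0.54 ± 0.35, with an adjusted p of 0.441, and with the index as a covariate it was called (-0.81 ± 0.24, adjusted p of 0.0453), where 4.47% of genes were.

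Drosha had the highest estimate from week 0 in the MIR29B arm. Its libraries at week 0 stood at 0.319, 0 and 0.977 CPM at 2 mg/kg and 1.29, 0.767 and 0.859 CPM at 3 mg/kg, on 0 to 38 counts each. At week 4 they stood at 2.25, 2.44 and 2.61 CPM at 2 mg/kg and 2.54, 1.33 and 1.03 CPM at 3 mg/kg, on 20 to 72 counts. The weeks overlapped at 3 mg/kg. The log2 fold change was 1.57 ± 0.55, a fold of 1.37 to 6.39, with an adjusted p of 0.108 by edgeR and 0.0415 by DESeq2, which called 6.54% of genes there. With the transcript length index as a covariate it was 1.28, with an edgeR adjusted p of 0.147. On leaving out each library in turn the edgeR adjusted p ran from 0.0581 to 0.283. In the scrambled arm the same comparison gave 0.29 ± 0.53, and the difference between arms was 1.27 ± 0.76 with an adjusted p of 0.792. The other genes in the MIR29B arm at week 4 lay between -0.54 and 0.60.

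No gene of the set passed the test of a difference between arms in its change from week 0. For week 2, 0 of 10 were called (0% of all tested), and 1 had an unadjusted p under 0.05 (5.61%). That gene was Ago2, at 0.43 ± 0.37 in the MIR29B arm and -0.92 ± 0.38 in the scrambled arm, a difference of 1.36 ± 0.53, with an edgeR adjusted p of 0.859 (0.0154 before adjustment). It was 0.83 with the transcript length index as a covariate and 0.89 without replicate 1 of scrambled 3 mg/kg at week 0. For Drosha the difference was 1.48 ± 0.78 and for Tnrc6b 0.67 ± 0.35, with adjusted p of 0.889 and 0.888. For week 4, 0 of 10 were called (0%), and 0 had an unadjusted p under 0.05 (6.03%). The week 2 change of Tnrc6a differed between arms by -0.01 ± 0.49.

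No partner of these genes passed the test between the arms. The 7 lists held 88 genes, of which 83 were tested: microprocessor and nuclear partners (10 of 10 tested), export and Dicer partners (7 of 7), chaperones that load the Argonautes (10 of 10), silencing partners (19 of 21), deadenylation (17 of 17), decapping (10 of 10), and tailing, trimming and turnover of microRNAs (11 of 14). Adar is on both the microprocessor list and the export list, and it was counted once in the totals. In the 9 comparisons of the arms 0 of the 83 were called. At week 2 with doses averaged, 10 (12%) had an unadjusted p under 0.05, beside 9.83% of all tested genes, and the median log2 fold change was -0.11 beside -0.09 over tested genes. List medians there were -0.10, -0.11, 0.40, -0.06, -0.05, -0.26 and -0.28 in the order given, and at week 4 they were 0.04, 0.05, 0.09, 0.03, -0.01, 0.08 and 0.36.

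Against week 0 in the MIR29B arm, 2 deadenylation genes rose and none of the 83 fell. These were 2.41% of the 83 and 11.8% of the 17 deadenylation genes at each week. Of all tested genes, 5.44% were called at week 2 and 3.09% at week 4. Tob2, which bridges the CCR4-NOT deadenylase to its targets, stood at 3.41, 4.69 and 6.49 CPM at week 0, 8.15, 11.5 and 14.2 CPM at week 2 and 6.63, 13.6 and 16.9 CPM at week 4 in the MIR29B arm. It rose at week 2 (1.19 ± 0.25, edgeR adjusted p of 0.00428) and at week 4 (1.34 ± 0.25, adjusted p of 0.00108), and the later weeks did not overlap week 0. It also rose at week 2 in the scrambled arm (0.87 ± 0.25, adjusted p of 0.0472). The lowest, median and highest scrambled libraries stood at 5.21, 6.86 and 8.33 CPM at week 0, 9.01, 12.3 and 14.5 CPM at week 2 and 5.67, 7.82 and 12.1 CPM at week 4. The difference between arms was not called for any of the 83 genes. Btg1, an antiproliferative gene of the same family, stood at 112, 123 and 130 CPM at week 0, 178, 195 and 270 CPM at week 2 and 179, 213 and 270 CPM at week 4 in the MIR29B arm. It rose at week 2 (0.76 ± 0.22, adjusted p of 0.0370) and week 4 (0.84 ± 0.22, adjusted p of 0.0277). With scrambled RNA it stood at 109 to 164 CPM (median 136) at week 0, 122 to 380 CPM (215.5) at week 2 and 192 to 356 CPM (216) at week 4, was not called there, and the arms overlapped at each week. White cell marker sums over the same weeks of the MIR29B arm stand beside these changes. The neutrophil sum was 172 to 591 CPM (median 318) at week 0, 767.5 to 1664 CPM (906) at week 2 and 555 to 1236 CPM (829) at week 4, and the eosinophil and basophil sum had medians of 7.11, 27.6 and 30.8 CPM. Monocyte medians were 320, 410 and 607 CPM at weeks 0, 2 and 4. Those of B cells were 182, 116 and 117 CPM, and those of T cells 133, 120 and 101 CPM. NK cell medians were 45.5, 23.4 and 48.9 CPM. The part of cell content in the Tob2 and Btg1 changes was not tested. These genes belong to a family that recruits the deadenylase, and no enzyme subunit on that list was called, the list's median being -0.33 at week 2 and 0.11 at week 4 in the MIR29B arm. With scrambled RNA 1 of the 83 (1.2%) was called at week 2 against 0, beside 3.21% of all tested genes, and 0 at week 4 against 0, beside 0.46%.

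Across libraries the 10 genes varied together to different degrees. Over the 45 pairs the median Pearson r of log2 CPM was 0.39, from 0.05 for Ago4 with Dgcr8 to 0.73 for Tnrc6a with Dicer1 and 0.72 for Tnrc6b with Ago2, over 36 libraries that share differences in depth, week and transcript length index. The SD relative to the mean was 0.30 for Tnrc6b and 0.41 to 0.51 for Dicer1, Ago1, Dgcr8, Tnrc6a and Ago2. It was 0.61 to 0.81 for Ago4, Drosha, Xpo5 and Ago3, the 4 genes with the fewest counts. The tested genes most like each member over the 36 libraries are given with r as a description: Khnyn and Gpatch2 for Drosha (0.75 each), Pxk and Dpp4 for Dgcr8 (0.88 each), Otud4 and Strn for Xpo5 (0.77 and 0.76) and Rasgrp1 and Dock10 for Dicer1 (0.89 and 0.85). For the Argonautes they were Ciita and Arhgef18 for Ago1 (0.83 each), Tent5c and Nudcd3 for Ago2 (0.87 and 0.85), Usp24 and Med12l for Ago3 (0.77 each) and Tnfsf14 and Mbd5 for Ago4 (0.71 and 0.68). For the scaffolds they were Snrnp70 and Setd7 for Tnrc6a (0.84 and 0.83) and Anp32e and Mxi1 for Tnrc6b (0.81 and 0.79).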

How the data were processed

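RNA from blood of 36 samples was extracted with TRIzol and depleted of globin mRNA, per the labels. The authors deposited raw counts per RefSeq transcript, not normalised, for 25856 rows. HISAT2 2.0.5, featureCounts 1.5.0-p3 and the build GRCm38 are listed, with no role, in the submitters' processing notes. Annotation release, strand setting and treatment of read mates are not given in the sources used here. Every deposited count was even (0 odd values), so a fragment may count as 2.

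Rows were matched to symbols by a RefSeq table on GRCm38.p6 (25645) or GENCODE on GRCm38 (137), leaving 74 without a symbol. The row with the highest total stood for each gene. Drosha had 2 rows, Ago1 3 and Tnrc6b 2, and the others 1. The filterByExpr filter (minimum count of 10, minimum total of 15) left 11953 genes. Counts were scaled by TMM, and 21 comparisons were tested, two-sided, with the quasi-likelihood F test of edgeR 4.0.16 in R 4.3.3, in 1 fit of 12 groups with no covariate. Benjamini-Hochberg adjustment was over all tested genes of a comparison. The common dispersion was 0.25. Intervals are 95% and SEs come from the F statistic. Lengths are those of the same transcripts in GENCODE and 3′ UTRs are from its stop codons. Library depth, 10.7 to 45.65 M counts, sets the precision of low genes.

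Alternatives were median-of-ratios scaling, no filter, DESeq2 1.42.0, a replicate block, summed transcript rows, leaving out libraries above 5% ribosomal RNA, the transcript length index, and leaving out each library. Halved counts were added after seeing the data. The code was tested on simulated data. The 10 genes, the pathway and marker lists and the tests were chosen with earlier results of these data known. Named are all 10 genes, up to 3 called genes of smallest p per list in the arm and week comparisons, and for each of the 10 the 2 genes with established symbols of highest r.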

Additional observations from a re-analysis of the deposited data

Results flagged for a closer look

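Within the 6 libraries of an arm and week, 60 sets were examined for a library far from the others, and 3 had one; by chance about 1 in 20 such sets would. Xpo5 stood at 2.88 CPM in replicate 2 of scrambled 3 mg/kg at week 0, where the next library was at 1.34 CPM. Xpo5 stood at 0 CPM in replicate 2 of scrambled 3 mg/kg at week 4, where the next was at 1.14 CPM. Ago3 stood at 1.14 CPM in replicate 1 of scrambled 2 mg/kg at week 2, where the next was at 0.357 CPM. These 2 genes are among those with the fewest counts.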

How the results depend on the processing

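The count of called genes among the 10 stayed at 0 in each of the 21 comparisons under median-of-ratios scaling, no filter, summed transcript rows, halved counts, and without libraries above 5% ribosomal RNA. With the replicate block it was 0 in all 21 as well; the block's adjusted p were 0.328 for Ago2 at week 2 with doses averaged and 0.0852 for Tnrc6b at week 2 against 0 in the scrambled arm. Same-numbered libraries of different groups had a mean r of 0.038 in their deviations (-0.535 to 0.470 over 198 pairs). Other libraries had -0.019, and 18 of 36 libraries correlated best with their own number. Deviations within a group sum to 0, so the -0.019 is largely tied to the 0.038 and is no separate baseline. No value expected without pairing was computed for the 18 of 36. The pairs join arms and doses as well as weeks, so these values cannot tell whether replicate numbers follow the same animals. DESeq2 called 1 gene at week 4 against 0 in the MIR29B arm (Drosha) and 1 at week 2 against 0 in the scrambled arm (Tnrc6b). The transcript length index called 1, Tnrc6a, at week 2 and 1 at week 4 against 0 in the MIR29B arm. Leaving out each library in turn gave 0 to 1 at week 2 against 0 in the MIR29B arm (Tnrc6a, without replicate 2 of MIR29B 3 mg/kg at week 2), and 0 in the other comparisons. The causes were not tested. Of 210 estimates, 40 changed sign with the index, 20 without the libraries above 5% ribosomal RNA, and 0 to 7 under the other settings, with up to 19 on leaving out 1 library. Low counts limit Ago3, Ago4, Drosha and Xpo5, which had the widest intervals between the arms at week 2.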
